A study of Mus musculus with 4 samples.

Results

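Strongly disease-associated microglia were taken as the week 5 cells that devoted the largest share of their transcripts to 8 genes of the disease-associated program: Spp1, Cst7, Lpl, Fabp5, Axl, Clec7a, Itgax and Gpnmb. A cell's score was the summed unique molecular identifiers (UMIs, 1 per captured transcript) of these genes per 10000 UMIs of the cell, and a score of at least 30 made a cell a member. Cells first had to show at least 500 genes, at most 10% mitochondrial UMIs and fewer than 3 of the macrophage genes Mrc1, Pf4, F13a1, Ms4a7, Cd163 and Lyve1. Of 1839 week 5 cells that passed, 287 were members, 218 in replicate 1 and 69 in replicate 2, out of 4000 barcodes in the whole series. The reference within each library was its low-score cells, with a score under 10 (588 and 747 cells).

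The study profiled single CD11b-positive cells from the corpus callosum, the main white matter tract between the hemispheres, of male C57BL/6 mice aged 13 weeks. Groups of 2 libraries each were compared: untreated mice (week 0) and mice at week 5 of cuprizone, a copper chelator that kills oligodendrocytes and strips myelin. The tissue was dounced, cleared of myelin debris and sorted for live, nucleated, single cells with CD11b on their surface, and libraries were made with the 10x 3′ v3.1 chemistry. The labels do not say whether the 2 libraries of a group came from different animals or from pools. The spread behind every p-value below may therefore be only technical. Against low-score cells of the same library, that spread is how far the class difference varied between the 2 libraries, pooled over genes. In a sorted suspension, fewer cells of a type and less RNA per cell cannot be told apart from summed counts.

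Microglia are the resident macrophages of the brain. In healthy tissue they express a homeostatic program that includes the purinergic receptor P2ry12, the surface protein Tmem119 and the fractalkine receptor Cx3cr1. Near amyloid, dying cells or myelin debris they can shift to a disease-associated program, in which the lipid-sensing receptor Trem2 and its adaptor Tyrobp signal through Syk, and in which genes of lipid handling, lysosomes and phagocytosis are known to rise. Demyelination exposes microglia to a large load of cholesterol-rich membrane, which must be taken up, digested in lysosomes and exported, with apolipoprotein E as the main carrier of lipid in the brain.

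The libraries differed in depth. They summed to 2415001 and 4631622 UMIs at week 0 and to 6559032 and 3322818 at week 5, and the largest number of genes in any barcode was 2999, 6615, 3999 and 2996 in the same order. Week 5 members had a median of 12562.5 UMIs in replicate 1 and 2520 in replicate 2, against 5261.5 and 2251 in low-score cells. No member shared its barcode with another library. The fit below scaled each class sum by its total and a TMM factor, a correction for sums in which a few genes take many reads, and the values called CPM are counts per total on that scale; raw CPM are the same without the TMM factor.

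The RNA content of single members varied widely, as the plot of ribosomal and Malat1 shares shows. Ribosomal protein genes made up less than 10% of UMIs in 40 of 218 members of replicate 1 and in 39 of 69 of replicate 2 (18.3% and 56.5%), against 313 of 588 and 556 of 747 low-score cells (53.2% and 74.4%). The members under that limit had median depths of 1586.5 and 1661 UMIs. In them the nuclear RNA Malat1 took a median of 8.40% and 12.3% of UMIs. At the other end, Malat1 was under 0.3% of UMIs in 18 members of replicate 2 and in 2 members of replicate 1, although the gate selected nucleated cells. Low-score cells included 8 and 9 such cells. The part of this RNA content in the results below was tested only by repeating each count in cells with at least 10% ribosomal UMIs, in cells with at least 0.3% Malat1 and in cells with at least 3000 UMIs, all chosen after seeing the data.

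**Figure D1:**
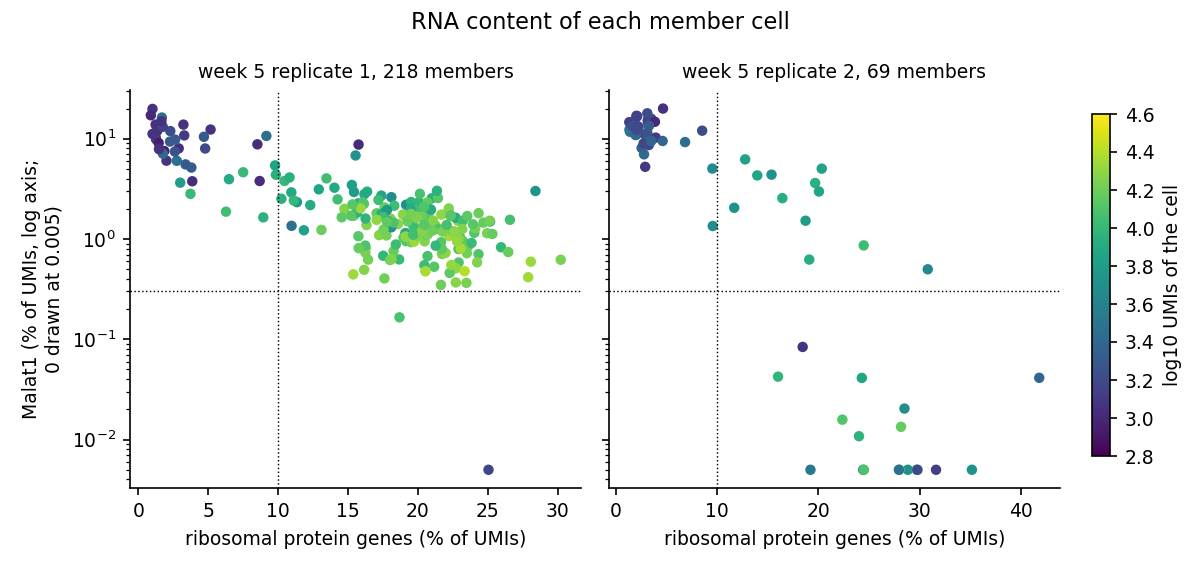
Each point is 1 member cell; the horizontal axis gives the percentage of its UMIs in ribosomal protein genes, the vertical log axis the percentage in Malat1, and colour the log10 of its UMIs, with 1 panel per week 5 library. The 40 and 39 members under 10% ribosomal UMIs lie to the left and had median depths of 1586.5 and 1661 UMIs, and 18 of 69 members of replicate 2 lie below the dotted line at 0.3% Malat1.

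Every member had a UMI of at least 3 of 12 microglia markers, with a median of 10 detected in replicate 1 and 7 in replicate 2. The summed level of these markers was 20217 and 17996 raw CPM in members, below the 34977 and 34565 of low-score cells, and none was at 0. Of 12 markers of border-associated macrophages, the macrophages of meninges and vessels, 6 were used by the rule that removed cells, so their levels are no check. After that rule those 6 still summed to 145 and 159 raw CPM in members against 18.8 and 23.2 in low-score cells. Of the others, Cbr2, Clec10a and Cd209f were at 0 in members of both libraries, while Colec12 and Folr2 were higher than in low-score cells, as were Pf4 and Ms4a7 of the rule, 4 higher and 2 lower of 6 tested (median log2 3.35). Folr2 was at 32.3 and 4.05 CPM in members against 4.57 and 1.02, and its member value in replicate 2 rests on 1 UMI. The whole list summed to 370 and 331 raw CPM in members against 264 and 284 in low-score cells, and its part in the results was not tested beyond repeating the counts in cells with none of the rule's 6 genes. Of 12 monocyte markers, Chil3, Vcan, F10 and Hp were among those at 0 in both. The list summed to 295 and 141 raw CPM in members against 108 and 82.6. Of its 6 tested genes, 1 was higher, Fn1, described below, while Ccr2, Plac8 and S100a4 were lower (median log2 −1.02). All 8 lymphocyte markers and the neutrophil markers S100a8, S100a9, Retnlg, Ly6g, Camp and Ngp, 6 of 8, were at 0 in members of both libraries. The microglia markers were thus present in the cells that carry the label, at a lower summed level than in their low-score neighbours.

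The 8 score genes chose the members, so their values are a description. Members made up 23.2% of the cells of week 5 replicate 1 (exact binomial 95% interval 20.5 to 26.0) and 7.68% of replicate 2 (6.03 to 9.62), and 1 of 917 and 1 of 913 cells at week 0; the intervals cover counting error only. With each cell thinned to 1000 UMIs, and shallower cells left out, the shares were 26.0% of 881 cells and 10.7% of 793. The median score of members was 58.2 and 61.2, with quartiles of 42.3 to 96.7 and 44.5 to 100. Just inside the threshold, 23 and 6 cells scored from 30 to under 35, and just outside it 16 and 15 cells scored from 25 to under 30.

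**Figure D2:**
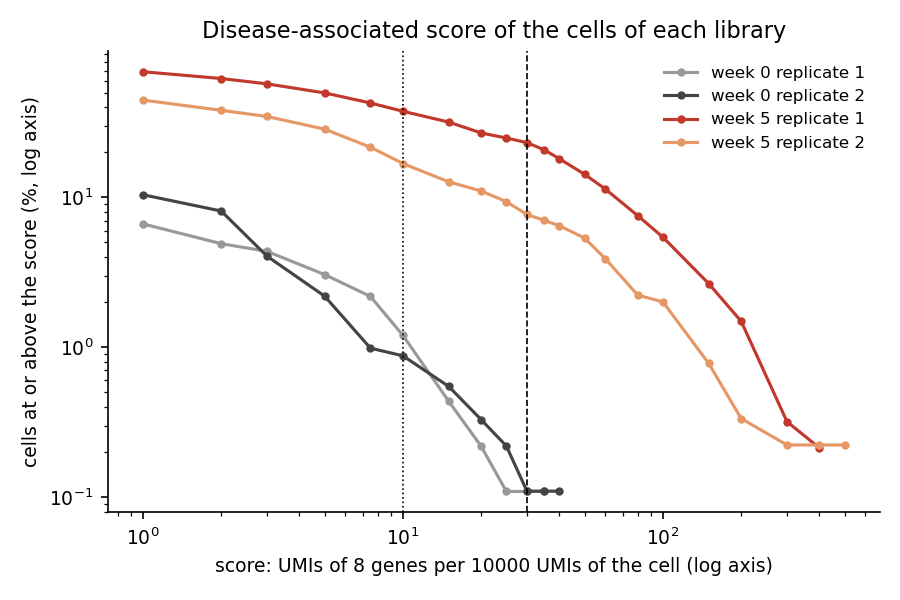
The share of cells (percent, log axis) at or above each score (UMIs of the 8 genes per 10000, log axis) in the 4 libraries, with dashed and dotted lines at the scores of 30 and 10. At scores up to 400 the week 5 libraries lie above both week 0 libraries, and replicate 1 lies above replicate 2 at the threshold of 30 (23.2% against 7.68%).

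Within the score, the secreted phosphoprotein Spp1 was the leading gene. It reached 3832 and 5355 CPM in members against 18.6 and 7.12 in low-score cells and 1.86 and 1.16 at week 0. A single cell of replicate 2 held 52.8% of that library's Spp1 UMIs, and without it the level was 2526. Lpl, the lipase that releases fatty acids from lipoproteins, was at 2042 and 2011 CPM in members and 38.2 and 39.98 in low-score cells. It had a UMI in 90.4% and 81.2% of members and in 12.8% and 11.2% of low-score cells. Gpnmb, a lysosomal and surface glycoprotein, was at 357 and 227 CPM in members, at 2.61 and 0.678 in low-score cells and at 0 in both week 0 libraries. Among members, Spp1 took the most score UMIs in 62 and 23 cells, Cst7, a cystatin, in 50 and 4, Lpl in 49 and 23, and the fatty acid-binding protein Fabp5 in 34 and 7. Members therefore reached the threshold through different genes: 1 gene gave more than 50% of the score UMIs in 84 of 218 and 44 of 69 cells, and all 8 genes were detected in 52 and 5.

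Members were then compared with low-score cells of the same library on the genes outside the score. UMIs were summed per class and library, and edgeR's quasi-likelihood test was run on 10330 genes with the library as a block and Benjamini-Hochberg adjustment; a gene was called at an adjusted p under 0.05. Of the tested genes, 1370 were higher in members (13.3%) and 1072 lower (10.4%), 23.6% in all, with a median log2 fold change of −0.07 over all tested genes. The split depended on the scaling: 56.1% of the calls were higher, but with totals alone in place of TMM factors 16.9% were (763 higher and 3754 lower), as the median of all genes moved from −0.07 to −0.59, and with DESeq2 72.3% were (773 and 296). Directions below are relative to the TMM scale. With 2 libraries and a block the fit leaves 1 residual degree of freedom, so its error was borrowed from the spread of all genes together. Leaving out a week 5 library leaves 1 member sum and 1 low-score sum; that fit has no block and takes its spread from the 2 week 0 sums, assuming that the single sums vary likewise, so a call lost there does not show a smaller change. Cells of 1 library are not replicates: n is 2 libraries throughout. Against all cells of week 0, 1558 of 10181 genes were higher in members (15.3%) and 1399 lower (13.7%), 29.0% in all, with a median of −0.12. Both comparisons use the same member sums, so their values are given side by side and not as support for each other.

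The 14 largest rises were taken among called genes with at least 20 member UMIs in each library and the same sign in both. Some called genes with large fitted values fell outside this rule. Among them were Atp6v0d2 and Pf4, with log2 values of 8.61 and 6.02, as replicate 2 held 6 and 2 of their member UMIs. Flt1, at 5.09 and described below, was also outside it. Mmp12, the macrophage elastase, had 64.5 and 231 CPM in members, 0 and 0.339 in low-score cells and 0 and 0.193 at week 0. Its UMIs lay in 20 and 12 member cells, and 1 cell held 56.1% of those in replicate 2. With 177 UMIs in members and 1 in low-score cells the ratio of summed levels was 505 (95% counting interval 89.6 to 20075), and the adjusted p from edgeR was 1.61e-67. Fn1, the matrix glycoprotein fibronectin, was at 370 and 118 CPM in members against 4.25 and 2.03 in low-score cells, and 3.71 and 0 at week 0. Its log2 fold change was 6.24 (SE 0.34, edgeR adjusted p = 3.61e-70), and 52.8% and 18.8% of members had a UMI against 1.02% and 0.402% of low-score cells. Fabp3, a fatty acid-binding protein outside the score, was at 152 and 85.1 CPM against 2.61 and 2.03, a log2 fold change of 5.65 (SE 0.37). Colec12, a scavenger receptor of the collectin family and one of the border-associated macrophage markers, was at 169 and 118 CPM against 2.29 and 3.73, and had no UMI at week 0. Its level was at least 445-fold and 309-fold higher than the week 0 floor of 3 UMIs over both libraries.

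Ch25h, the enzyme that makes 25-hydroxycholesterol, was at 201 and 174 CPM in members, 4.90 and 3.05 in low-score cells and 0.742 and 0.193 at week 0. Members stood above both references in each library, by a log2 fold change of 5.53 against low-score cells (SE 0.32, edgeR adjusted p = 4.26e-63). Igf1, insulin-like growth factor 1, was at 528 and 462 CPM in members, 12.4 and 10.5 in low-score cells and 2.23 and 0.963 at week 0. The libraries gave nearly the same log2 difference, 5.39 and 5.44, and the fitted value was 5.42 (SE 0.26). Lgals3, the glycan-binding galectin-3, was at 441 and 1382 CPM in members against 23.8 and 17.3. It differed more between libraries, with log2 differences of 4.20 and 6.31. The other genes among the 14 largest rises were the apolipoproteins Apoc4, Apoc1 and Apoc2, the chemokine Cxcl14 (log2 5.37), the membrane repair protein Myof (5.06), the metalloprotease Adam33 (4.65) and Gm1673 (4.63). Each of the 14 kept its direction against low-score cells under all 18 alternatives, and its call in those with both libraries, except that Myof was not tested in 1 alternative. The 14 were chosen as the largest called rises, and the alternatives reuse the same libraries. Keeping direction and call is therefore not separate evidence.

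**Figure D3:**
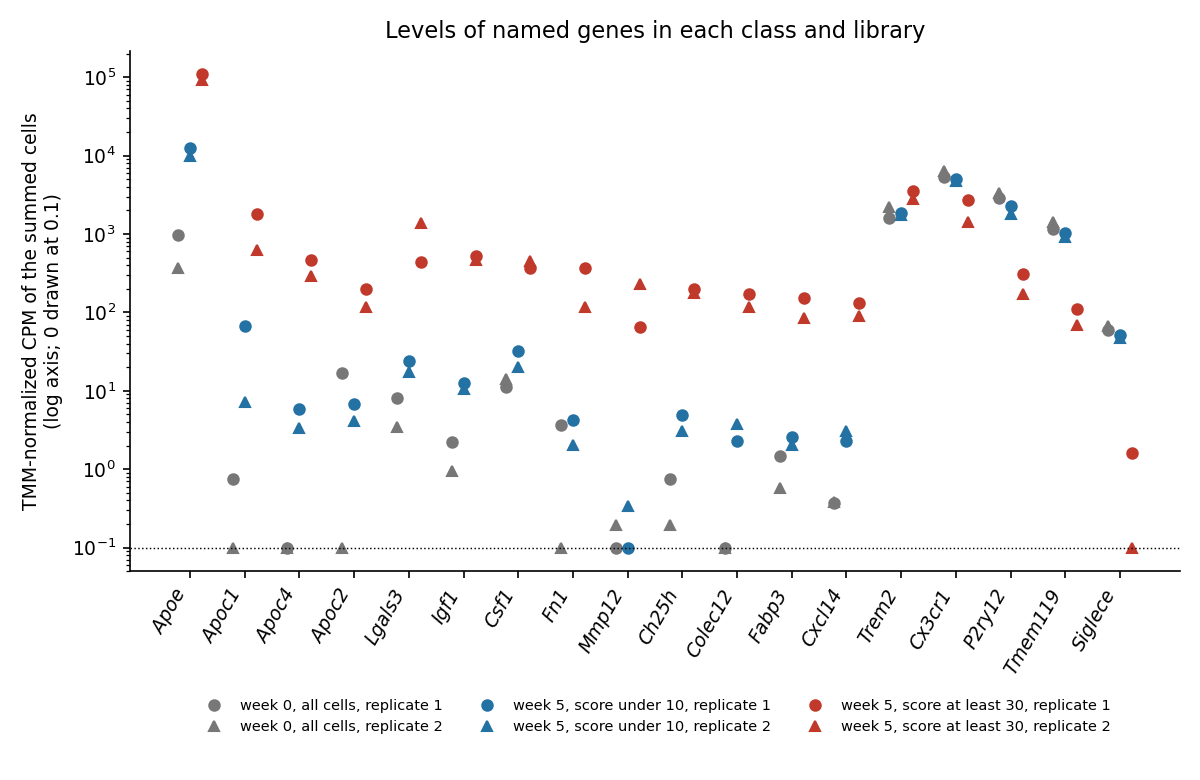
TMM-normalized CPM (log axis, 0 drawn at 0.1) of 18 genes outside the score in all week 0 cells, week 5 low-score cells and members; circles are replicate 1 and triangles replicate 2. From Apoe to Cxcl14 the members lie above both references in both libraries, and for Cx3cr1, P2ry12, Tmem119 and Siglece they lie below.

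Promoter sequences are shown for 4 genes to let the letters be read beside the levels: Gpnmb of the score, Igf1 and Mmp12 among the largest rises, and the lysosomal protease gene Ctsd. They run from 250 bases before to 50 after the annotated start, in RefSeq models on GRCm38.p6, the same assembly as the mm10 build the submitters' notes name. Capitals mark matches to TGANTCA, the motif of AP-1 factors, in the first 3, and to CACGTG, the core of the motif of MiT family factors, in Ctsd, a core that many other helix-loop-helix factors also bind; both strands were searched, and the matches shown do not overlap. The Gpnmb window is chr6:49036268-49036567 (plus strand), the Igf1 window chr10:87860861-87861160 (plus strand), the Mmp12 window chr9:7347124-7347423 (plus strand, the second of 2 annotated starts, the first having no match) and the Ctsd window chr7:142387778-142388077 (minus strand).
Gpnmb: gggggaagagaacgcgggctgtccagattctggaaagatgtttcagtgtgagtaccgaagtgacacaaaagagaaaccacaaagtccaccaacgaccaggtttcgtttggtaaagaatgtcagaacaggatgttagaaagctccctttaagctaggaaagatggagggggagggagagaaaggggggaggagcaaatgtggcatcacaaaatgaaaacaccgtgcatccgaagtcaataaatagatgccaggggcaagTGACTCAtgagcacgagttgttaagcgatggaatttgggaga
Igf1: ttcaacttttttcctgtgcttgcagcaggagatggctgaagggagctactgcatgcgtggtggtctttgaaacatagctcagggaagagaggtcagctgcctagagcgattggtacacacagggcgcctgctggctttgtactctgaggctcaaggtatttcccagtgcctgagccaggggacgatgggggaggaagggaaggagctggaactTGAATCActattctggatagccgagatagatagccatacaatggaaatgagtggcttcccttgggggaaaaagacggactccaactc
Mmp12: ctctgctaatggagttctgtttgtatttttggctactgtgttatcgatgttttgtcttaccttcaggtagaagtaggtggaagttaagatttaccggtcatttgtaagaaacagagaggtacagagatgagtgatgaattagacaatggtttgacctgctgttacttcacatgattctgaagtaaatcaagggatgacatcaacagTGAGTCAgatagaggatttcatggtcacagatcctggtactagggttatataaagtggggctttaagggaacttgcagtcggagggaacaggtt
Ctsd: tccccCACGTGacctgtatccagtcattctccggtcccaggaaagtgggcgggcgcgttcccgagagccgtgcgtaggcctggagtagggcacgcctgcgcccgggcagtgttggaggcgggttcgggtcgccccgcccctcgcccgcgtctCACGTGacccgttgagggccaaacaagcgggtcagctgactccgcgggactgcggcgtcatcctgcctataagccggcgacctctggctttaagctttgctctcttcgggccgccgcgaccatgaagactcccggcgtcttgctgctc
The match begins 8 bases after the start in Gpnmb, 37 bases before it in Igf1 and 44 before it in Mmp12, and those in Ctsd begin 245 and 98 bases before it. TGANTCA was in the promoters of 3 of the 6 score genes with an entry (Cst7, Itgax and Gpnmb) and CACGTG in 0. Over all 32851 promoters the shares were 7.81% and 7.15%. They were 6.37% and 12.9% for genes higher in members, 5.33% and 9.24% for genes lower in members, and 4.73% and 10.5% for all tested genes. The 4 genes shown all hold a match, and most genes looked up do not. Neither motif was in the windows of Apoe, Apoc4, Apoc2, Lgals3, Ch25h, Fabp3, Cxcl14, Myof or Gm1673, all higher in members. P2ry12, lower in members, held CACGTG 228 bases before its start. A match says only that the letters are in the window.

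Apolipoproteins and their receptors moved upward as a list. Of 10 tested, 7 were higher and 1 lower (5 and 2 with totals alone). Their median log2 fold change was 2.48, against −0.07 for all tested genes. Apoe, the main brain apolipoprotein, reached 108270 and 91250 CPM in members, 12503 and 9946 in low-score cells and 978 and 365 at week 0. The classes were ordered the same way in each library, with a log2 fold change of 3.16 over low-score cells (SE 0.06) and of 7.22 over week 0 (SE 0.70, edgeR adjusted p = 1.98e-11). Apoe alone was 7.87% and 7.94% of member UMIs, against 1.33% and 1.13% in low-score cells, and it had a UMI in every member. In the cells with at least 0.3% Malat1 its log2 fold change over low-score cells was 3.11 with an edgeR adjusted p of 0.169, and in the other alternatives the call held.

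Apoc1, an exchangeable apolipoprotein, was at 1784 and 620 CPM in members, 66.6 and 7.12 in low-score cells and 0.742 and 0 at week 0. It had a UMI in 66.5% and 33.3% of members. Apoc4 was at 472 and 288 CPM against 5.88 and 3.39, and no week 0 cell had a UMI, so that members were at least 1240-fold and 757-fold above the week 0 floor. Apoc2, the cofactor of lipoprotein lipase, was at 201 and 118 CPM against 6.86 and 4.07, but at 16.7 and 0 at week 0, where the 2 libraries thus differed. These genes lie together on the minus strand of chromosome 7 (GRCm38, GENCODE vM21): Apoc2 at 19671579-19677941, Apoc4 at 19678083-19681479, Apoc1 at 19689481-19692660 and Apoe at 19696109-19699188. Apoc2 and Apoc4 are 0.14 kb apart, so the split of reads between these neighbours is uncertain and was not tested. The scavenger receptor Msr1 was called at 19.4 and 8.11 CPM against 5.88 and 1.69 (log2 1.80), a call lost in 7 of the 18 alternatives. Clu, an apolipoprotein made mainly by astrocytes, was lower (3.77 and 8.11 against 19.6 and 24.1 CPM, a call lost in 7 alternatives), and astrocyte markers, Clu among them, summed to 98.1 and 98.7 raw CPM in members against 263 and 335 in low-score cells; their part in the fall of Clu was not tested.

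Of 13 tested genes of sterol efflux and oxysterols, 6 were higher and 0 lower (median log2 0.38), but 4 higher and 5 lower with totals alone (median −0.14). Of 14 genes of sterol synthesis 1 was higher, Pmvk, and 0 lower (median 0.32), and with totals alone 0 were called (median −0.20). Nceh1, which hydrolyses cholesterol esters, was at 189 and 182 CPM in members against 31.0 and 30.2, a log2 fold change of 2.60 (SE 0.25). Npc2, the lysosomal cholesterol carrier, was at 2620 and 1901 CPM against 715 and 564. The exporter gene Abcg1 was at 401 and 227 CPM against 151 and 133, and the exporter Abca1 at 883 and 499 against 465 and 331. Both were called (log2 1.15 and 0.77), but the Abca1 call was lost in 7 alternatives, leaving out either library among them. Of 18 genes of fatty acid uptake and lipid droplets 7 were higher and 1 lower (6 and 4 with totals alone), the acyl-CoA synthetase gene Acsl1. Plin2, the coat protein of lipid droplets, was at 207 and 178 CPM against 27.4 and 31.5 (log2 2.74, SE 0.25), and Soat1, which stores cholesterol as esters, at 381 and 320 against 117 and 123 (log2 1.56, SE 0.21). Cd36, a fatty acid receptor, was at 15.6 and 8.11 CPM against 5.88 and 1.36 and did not pass (edgeR adjusted p = 0.07).

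Lysosomal genes were mostly higher in members, though not in every summed level. Of 34 tested genes of lysosomal membranes, hydrolases and the proton pump, 23 were higher and 1 lower (16 and 5 with totals alone), with a median of 0.90. That list summed to 21091 and 19822 raw CPM in members against 18477 and 17643 in low-score cells. Of 14 cathepsins and cystatins 8 were higher and 2 lower (7 and 4 with totals alone), with a median of 0.86. Their list summed lower in members, at 48836 and 43219 raw CPM against 60572 and 53806. Ctsd, the main aspartic protease of the lysosome, was at 16349 and 12114 CPM in members, 4772 and 4469 in low-score cells and 4488 and 5552 at week 0. Low-score cells thus lay near the week 0 levels while members were above them, by a log2 fold change of 1.61 over low-score cells (SE 0.10); this call was lost when either library was left out. Ctsb was at 6904 and 4545 CPM against 1698 and 1392, and Cd63, a tetraspanin of late endosomes, at 2851 and 2339 against 526 and 401 (log2 2.49, SE 0.15). Atp6v0d2, a pump subunit known from osteoclasts and activated macrophages, was at 23.7 and 24.3 CPM in members and had no UMI in low-score cells. Its 50 UMIs put it at least 47.4-fold and 48.8-fold above the floor of those cells. The falls among the cathepsins and cystatins were in the asparaginyl endopeptidase Lgmn (1365 and 1309 against 2149 and 2087) and in the secreted cystatin Cst3 (20098 and 14688 against 35936 and 28052). In cells with at least 10% ribosomal UMIs 18 of the 34 lysosomal genes were higher, and in cells thinned to 1000 UMIs 10 of 32. Over all genes tested in these fits, 833 of 9238 and 448 of 5969 were higher.

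Of 20 tested MiT family and related transcription factors, 8 were higher and 2 lower (median 0.26; 5 and 9 with totals alone, median −0.25). Mitf, the family's melanocyte and osteoclast factor, was at 98.4 and 150 CPM in members against 43.8 and 48.4 (log2 1.35, SE 0.24), whereas Tfeb was at 14.0 and 20.3 against 23.5 and 17.6 and Tfe3 at 105 and 138 against 124 and 155, neither past the test. Bhlhe40, a basic helix-loop-helix repressor, was at 75.3 and 85.1 CPM against 3.27 and 3.39, the largest rise of the list (log2 4.56, SE 0.37). The stress factor Atf3 was at 190 and 284 against 23.2 and 12.5, and Hif1a, the hypoxia factor, at 460 and 328 against 114 and 105. Maf, a factor of the homeostatic program, was at 358 and 199 CPM against 944 and 957 (log2 −1.75, SE 0.18).

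Receptor genes moved in both directions, with more falls than rises when totals alone were used. Over all tested genes 13.3% were higher and 10.4% lower. The medians of the Trem2 signalling and phagocytosis lists were −0.01 and −0.005, against −0.07 for all tested genes. Trem2 was at 3578 and 2818 CPM in members, 1870 and 1745 in low-score cells and 1592 and 2189 at week 0. It was called against low-score cells (log2 0.82, SE 0.13, edgeR adjusted p = 6.36e-09), but not against week 0 (0.76, edgeR adjusted p = 0.123). Without the library block its value was 0.83 with an adjusted p of 0.0917, and leaving out replicate 1 or 2 gave 0.69 and 0.94 with adjusted p of 0.468 and 0.285. Tyrobp was at 8092 and 5493 CPM against 2587 and 1789 (log2 1.63, SE 0.12). Of 13 genes of this receptor and its signalling, 4 were higher and 3 lower (2 and 7 with totals alone), the falls being the kinase Syk (55.9 and 4.05 against 89.5 and 86.7 CPM), Pik3cg and the phosphatase Inpp5d (297 and 182 against 505 and 532). Of 19 phagocytosis and opsonin receptor genes, 4 were higher and 4 lower (2 and 10 with totals alone); among the falls were Mertk, which binds opsonised dying cells, and Elmo1, of the engulfment machinery (116 and 105 against 384 and 411 CPM, log2 −1.81, SE 0.22). The Syk value in replicate 2 rests on 1 UMI, and without that library the call was lost.

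Inhibitory receptors also divided. Of 16 tested, 8 were higher and 4 lower (median 0.47; 6 and 7 with totals alone, median −0.02). Lilrb4a, an inhibitory immunoglobulin-like receptor, was at 317 and 624 CPM in members against 25.1 and 39.0 (log2 3.83, SE 0.23), and Cd72 at 152 and 166 against 33.6 and 30.2. Siglece, a sialic acid-binding inhibitory receptor, was at 1.61 and 0 CPM against 51.6 and 47.1 in low-score cells and 59.0 and 66.9 at week 0. Members held 3 UMIs of it and low-score cells 297, a ratio of 0.0288 (95% counting interval 0.00591 to 0.0851). Cd33, of the same family, was at 169 and 118 CPM against 382 and 460, while the B cell lectin Cd22 was at 62.9 and 56.8 against 9.14 and 10.2 (log2 2.67, SE 0.33).

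Growth factor and matrix genes were mostly higher: of 23 tested, 16 rose and 2 fell (12 and 4 with totals alone), with a median of 1.29. Csf1, the growth factor of macrophages and microglia, was at 369 and 450 CPM in members against 32.0 and 20.0 in low-score cells and 11.1 and 14.3 at week 0. It rose in both libraries (log2 3.94, SE 0.24), while its receptor gene Csf1r fell, from 3253 and 2890 to 2217 and 1395 CPM (log2 −0.79, SE 0.13; the call was lost in 5 alternatives). Postn, the matrix protein periostin, was at 68.8 and 162 CPM against 3.27 and 7.79, with 21 and 7 cells carrying it and 52.5% of the UMIs of replicate 2 in 1 cell. Plau, urokinase, was at 80.1 and 162 against 20.6 and 19.7, and its receptor gene Plaur at 107 and 251 against 12.4 and 16.6. The vascular growth factor receptor gene Flt1, listed among endothelial markers, was at 120 and 68.9 CPM against 2.29 and 3.39. Of 6 tested on that list it was the 1 higher, and 4 were lower.

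Chemokines rose in part. Of 13 tested against low-score cells, 6 were higher and 2 lower (median 0.53; 6 and 3 with totals alone), and of 10 tested against week 0, 9 were higher and none lower (median 3.36). Ccl3, an inflammatory chemokine, was at 976 and 1399 CPM in members, 132 and 89.8 in low-score cells and 42.7 and 14.8 at week 0. Ccl4, its neighbour in function, was at 1574 and 3300 against 364 and 193. In replicate 2, 1 cell held 52.5% of the Ccl4 UMIs, and without it the level was 1569. Cxcl10 went the other way in replicate 1, at 4.84 CPM against 140 in low-score cells, and was at 0 against 10.2 in replicate 2; the 428 UMIs of the low-score cells of replicate 1 came from 5 cells, and without that library the call was lost. Cxcl9 had opposite signs in the 2 libraries (27.97 against 12.4 and 0 against 49.5 CPM) and was not called, and 1 cell held 94.2% of its member UMIs. Of 18 inflammatory cytokine and NF-kB genes 5 were higher and 1 lower (median 0.33; 4 and 5 with totals alone, median −0.18). Il1b was at 65.1 and 28.4 CPM against 8.16 and 7.79, and its antagonist gene Il1rn at 12.4 and 52.7 against 1.63 and 2.71. The complement gene C3 was at 34.96 and 56.8 against 5.55 and 1.36. C1qa, a chain of the complement initiator C1q, was at 9916 and 7849 against 7419 and 7465. Its call (log2 0.25, edgeR adjusted p = 0.0483) was lost in 16 of 18 alternatives, and with totals alone its value was −0.23.

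Interferon response genes were higher in members than at week 0, and part of them were also higher than in low-score cells. Of 34 tested in each comparison, 31 were higher than at week 0 and none lower (median 3.68), and 19 were higher than in low-score cells and 0 lower (median 0.85; 14 and 6 with totals alone). Ifi27l2a was at 1830 and 714 CPM in members, 442 and 287 in low-score cells and 32.3 and 22.5 at week 0. Rtp4 was at 98.4 and 81.1 in members, 114 and 96.9 in low-score cells and 12.6 and 7.51 at week 0, so that members lay below low-score cells in each library without passing the test (log2 −0.22). Ifit3, an antiviral effector, was at 133 and 122 against 86.2 and 63.4 and 12.6 and 9.63; its call against low-score cells was lost in 10 alternatives. Among the DNA-sensor genes of the Ifi200 cluster, Ifi211 was at 114 and 68.9 CPM against 11.4 and 12.2 (log2 3.02, SE 0.30) and Ifi207 at 199 and 203 against 47.0 and 42.7 (2.15, SE 0.24), while Ifi204 was at 315 and 373 against 186 and 182 (0.88, SE 0.20). These genes are close paralogs in 1 cluster of chromosome 1, so the split of reads between them is uncertain. In cells with at least 10% ribosomal UMIs 11 of 31 interferon genes were higher than in low-score cells, beside 833 of all 9238 genes tested there.

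Class I antigen presentation genes were higher in members in part, and class II genes differed between the libraries. Of 17 class I genes, 9 were higher and 0 lower (median 0.77), but 2 and 2 with totals alone (median 0.29), and the heavy chain gene H2-D1 was at 2977 and 2814 CPM in members, 1341 and 1435 in low-score cells and 354 and 375 at week 0. Of 10 class II genes, 4 were higher (H2-Aa, H2-Ab1, H2-Eb1 and Cd74) and 1 lower (Cd80), with a median of 0.34 that was −0.15 with totals alone. Cd74, the class II chaperone, was at 642 and 2234 CPM against 271 and 326, with log2 differences of 1.24 and 2.78 in the 2 libraries. H2-Aa was at 146 and 486 CPM against 105 and 97.9, in 31 and 13 member cells, and leaving out replicate 2 gave a log2 fold change of 0.48. With that library left out H2-Eb1 was at −0.16, so its rise rests on replicate 2, while H2-Aa rose in both libraries and more in replicate 2. For H2-Ab1 the fit without replicate 2 could not decide, as it leaves 1 sum per class.

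Genes of energy use and translation were higher in members together with the depth and ribosomal content given above. Of 21 glycolysis and hexose transport genes, 12 were higher and 2 lower (median 1.52; 11 and 4 with totals alone). Gapdh was at 1860 and 1496 CPM against 473 and 330, and Pkm at 465 and 462 against 130 and 97.2. The glucose transporter Slc2a1 was at 62.9 and 101 against 22.2 and 24.4 (log2 1.71, SE 0.28), whereas the fructose transporter Slc2a5, a microglia gene, was at 31.2 and 40.5 against 216 and 174 (log2 −2.61, SE 0.28). The glycolysis count was 12 higher and 1 lower in cells with at least 10% ribosomal UMIs, and 10 and 1 of 17 in cells thinned to 1000 UMIs. Of 31 nuclear genes of the respiratory chain, 28 were higher (median 1.06; 21 with totals alone), with 24 in cells with at least 10% ribosomal UMIs and 11 in thinned cells. All 13 mitochondrially encoded genes were higher (median 0.77; 5 with totals alone), with 13 and 0 in the same alternatives. Of 83 ribosomal protein genes, 81 were higher (median 1.27), 81 in thinned cells and 4 in cells with at least 0.3% Malat1, where the median was 0.86. Over all genes, 833 of 9238 were higher by the ribosomal limit, 448 of 5969 with thinned cells and 722 of 10424 by the Malat1 limit.

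Of 26 genes of iron, metallothioneins and antioxidants, 19 were higher and 2 lower (median 1.21), and 14 and 2 with totals alone (median 0.72). Fth1, the ferritin heavy chain, was at 13226 and 14498 CPM in members against 3151 and 2410, and Ftl1, the light chain, at 7346 and 8173 against 1507 and 1222, where reads may be shared with the near-copy Ftl1-ps1. Slc40a1, the iron exporter ferroportin, was lower, at 56.5 and 32.4 against 160 and 117 (log2 −1.58, SE 0.26), a call lost in cells with at least 10% ribosomal UMIs. Cybb, the catalytic subunit of the phagocyte oxidase, was at 197 and 268 against 40.2 and 38.3, and the stress enzyme Hmox1 at 77.5 and 110 against 17.6 and 17.3. Of 26 cytoskeleton, annexin and S100 genes 15 were higher and 5 lower (11 and 6 with totals alone); the actin-capping gene Capg was at 261 and 349 CPM against 32.7 and 27.8, and Anxa5 at 294 and 328 against 44.4 and 36.3. Of 10 cell cycle genes 4 were higher (median 0.61), and 2 with totals alone (median 0.02). The mitotic kinase gene Cdk1 was at 18.3 and 20.3 CPM against 4.25 and 1.69, while Mki67, the proliferation marker, had a UMI in 6 and 0 members.

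The homeostatic program was lower in members. Of 26 tested genes 0 were higher and 20 were lower, with a median of −0.86, and against week 0 none was higher and 16 were lower (median −1.15). Tmem119 was at 109 and 68.9 CPM in members, 1037 and 911 in low-score cells and 1152 and 1441 at week 0 (log2 −3.39, SE 0.21, edgeR adjusted p = 4.03e-55). P2ry12 was at 308 and 170 against 2294 and 1782 and, at week 0, 2857 and 3329 (log2 −3.08, SE 0.17). For both genes each member value lay below the other values, an order whose share over all tested genes was not counted. With each cell thinned to 1000 UMIs, P2ry12 had a UMI in 16.7% and 8.70% of members and in 79.3% and 67.7% of low-score cells; without thinning the shares were 66.1% and 26.1% against 89.1% and 75.1%. Cx3cr1 was at 2731 and 1415 CPM against 5058 and 4669 (log2 −1.29, SE 0.12), a call lost when either library was left out and in cells with at least 0.3% Malat1. The transcription factor gene Sall1 was at 122 and 56.8 against 324 and 272, the lectin gene Siglech at 416 and 284 against 1424 and 1445, and the adhesion ligand gene Selplg at 587 and 373 against 2023 and 1861.

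Some genes of low-score cells had no UMI in any member. The 10 largest falls by fitted value were Hlf, Tmem204, Mycl, 8030442B05Rik, Tet1, Sema6d, Trpm3, Ttc9, Spint2 and Sgsh, all at 0 in members. Against the floor of 3 UMIs over both member sums, low-score cells were at least 16.3-fold and 12.1-fold higher for the transcription factor gene Hlf, 12.4-fold and 9.75-fold for Tmem204, and 8.94-fold and 14.7-fold for Mycl. For Sgsh, which degrades heparan sulfate in lysosomes, low-score cells were at least 5.73-fold and 8.09-fold higher. Both folds of each gene use the pooled floor, and the member sums held 2558989 UMIs in replicate 1 and 283624 in replicate 2. The second fold is therefore not a bound from the members of replicate 2 alone, whose sum was too shallow to repeat the first. Among falls with member UMIs, chosen by a rule added after the values were seen, were Filip1l (14.5 and 4.05 against 111 and 120 CPM), the crystallin gene Crybb1 (25.8 and 28.4 against 218 and 202), the lectin gene Clec4a2 (17.2 and 12.2 against 118 and 92.5) and the transcription factor gene Cebpd (25.8 and 12.2 against 147 and 144). Ddit4, a stress gene, was at 10.8 and 20.3 against 80.7 and 133, but at 15.6 and 18.1 at week 0, so that here the low-score cells stood apart.

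Transcripts of other cell types differed between the classes. Ttr, the choroid plexus transport protein, was at 80.1 and 4.05 CPM in members, 3171 and 2249 in low-score cells and 694 and 0.771 at week 0; the endothelial and choroid list summed to 157 and 70.5 raw CPM in members against 3555 and 2706. In low-score cells, 85 cells of replicate 1 and 16 of replicate 2 carried Ttr. Restricting both classes to cells with at least 3 microglia markers, which removed 0 members and 29 low-score cells, gave 1415 higher and 1071 lower genes. Trpm3 and Spint2, at 0 in members, had 5 and 6 UMIs in all week 0 cells against 50 and 49 in low-score cells; the part of choroid RNA in their falls was not tested. Mbp, a myelin gene, was at 30.7 and 20.3 CPM against 62.7 and 39.3, a call lost in 8 alternatives; myelin and oligodendrocyte markers summed to 1011 and 765 raw CPM in members against 1194 and 1018. Of the macrophage genes used to remove cells, Pf4 was at 127 and 8.11 CPM in members against 1.96 and 0, with 63.1% of the UMIs of replicate 1 in 1 cell, and Ms4a7 at 69.9 and 174 against 4.57 and 10.5 (log2 3.99, SE 0.31). Mrc1 was at 2.15 and 0 against 8.82 and 9.15. In cells with none of the 6 macrophage genes detected, members were 16.4% of replicate 1, and 1018 genes were higher and 786 lower.

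Levels changed in steps along the score. In 4 ranges of the score (under 10, 10 to under 30, 30 to under 60, and 60 or more), Apoe took 13350, 62131, 71700 and 85785 raw CPM in replicate 1 and 11331, 57537, 70860 and 86575 in replicate 2. The main step for Apoe was thus below the members' threshold, between the first and second range. Ch25h was at 5.23, 40.6, 46.4 and 248 raw CPM in replicate 1 and 3.47, 22.2, 38.4 and 248 in replicate 2, so that it was higher again in the last range as well as between the first 2. P2ry12 went from 2449 through 682 and 268 to 179, and from 2030 through 633 and 177 to 124. Trem2 was at 1997, 2158, 2321 and 2885 in replicate 1 and 1988, 2320, 2188 and 2673 in replicate 2, a small change on this scale; on the TMM scale members were at 3578 and 2818 CPM against 1870 and 1745, as given above. The ranges of 30 and above held 111 and 107 cells in replicate 1 and 34 and 35 in replicate 2, and the level within each range is a description without a test.

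**Figure D4:**
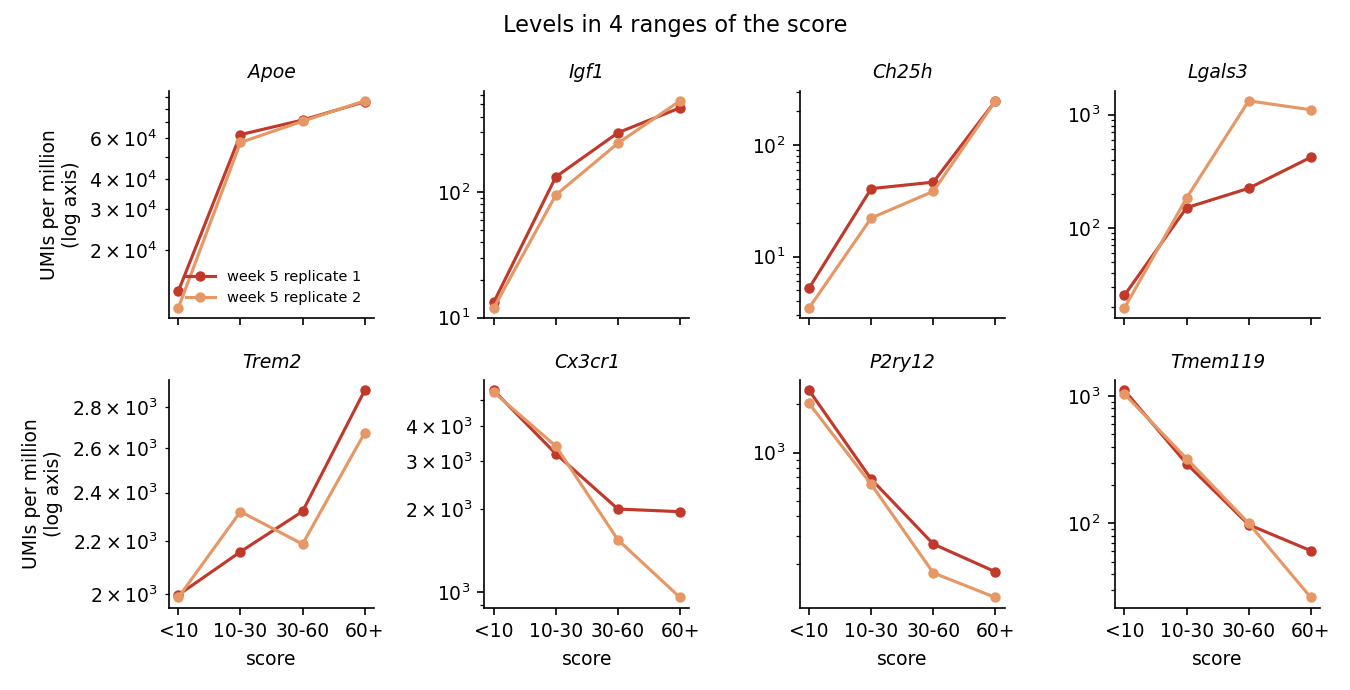
Raw CPM of the summed cells (log axes that differ between panels) in 4 ranges of the score for 8 genes outside it, with 1 line per week 5 library. Apoe rises mostly between the first 2 ranges, Ch25h again between the last 2, and Cx3cr1, P2ry12 and Tmem119 are lower in each later range in both libraries.

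Apoe was detected in every member, while other genes were found in part of them. The median member had 733 and 791 Apoe UMIs per 10000, with quartiles of 403 to 1090 and 448 to 1219, against medians of 38.3 and 25.6 in low-score cells. Igf1 had a UMI in 76.6% and 47.8% of members and in 5.10% and 2.28% of low-score cells, and Lgals3 in 60.1% and 55.1% against 4.42% and 5.22%. With cells thinned to 1000 UMIs, Igf1 was found in 25.9% and 27.5% of members against 0.738% and 1.08%. Over the 28 tested disease-associated genes outside the score, all 28 were higher than in low-score cells, with a median of 2.41, and 27 were higher than at week 0, with a median of 3.23. That list gathers genes known to move with this program and was chosen with results of these data known, so its count is not independent evidence. In cells with at least 0.3% Malat1, 18 of the 28 were called, with a median of 2.05. Over all genes of that fit 1287 of 10424 were called.

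**Figure D5:**
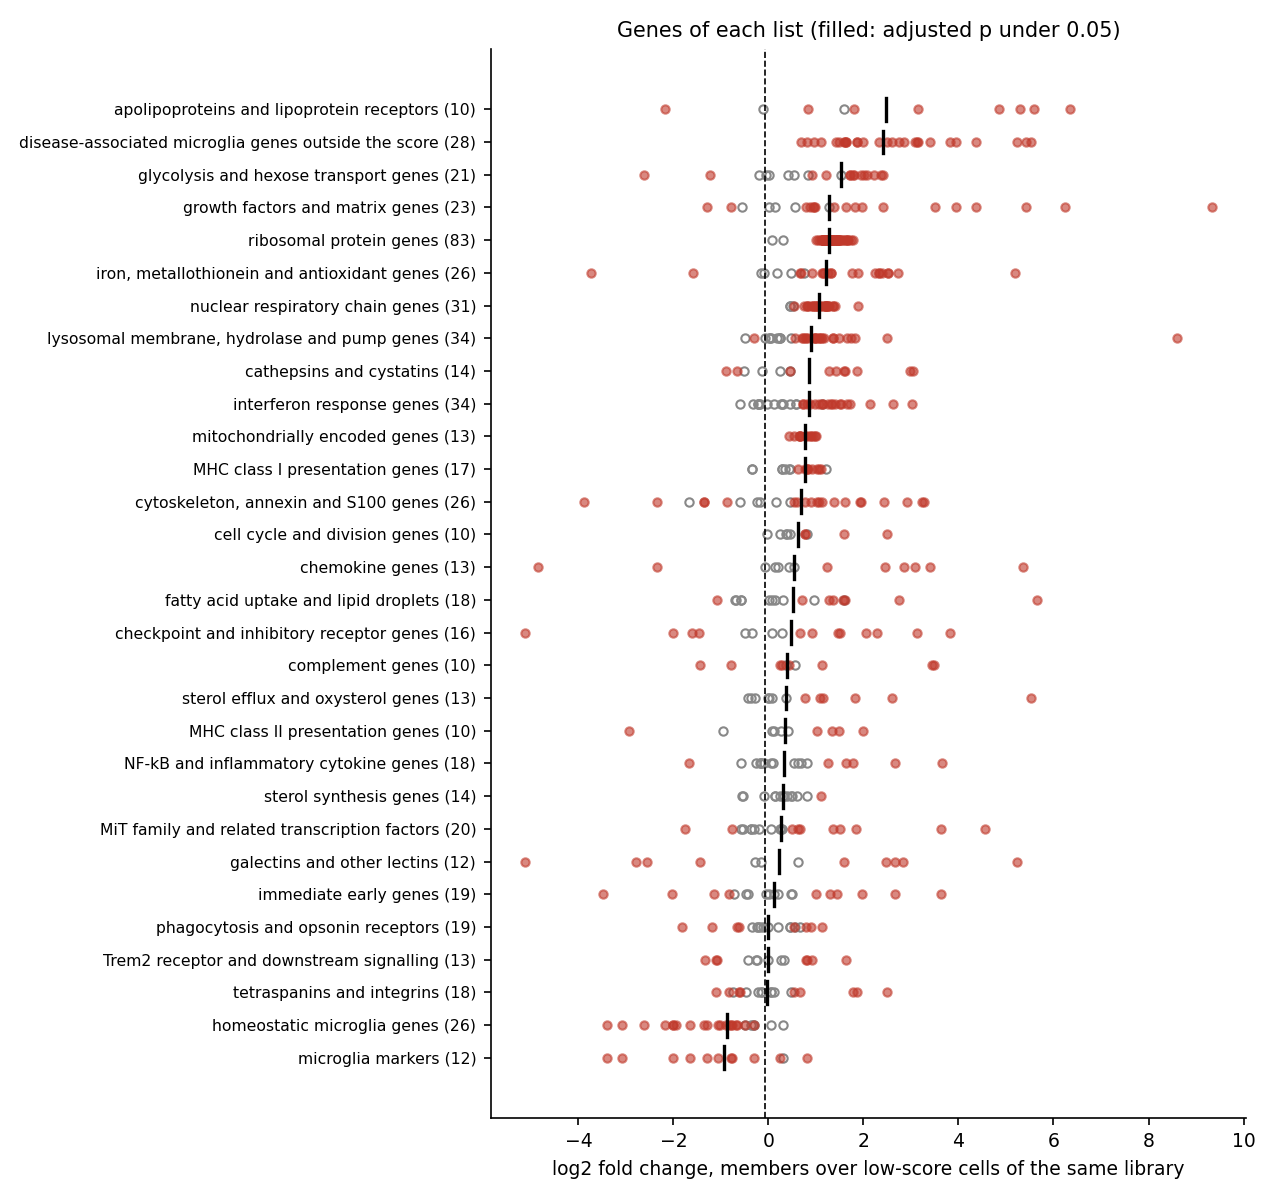
Each point is 1 tested gene of a list (number tested in brackets), placed by its log2 fold change of members over low-score cells; filled points have an adjusted p under 0.05, black bars are list medians, and the dashed line is the median of all tested genes at −0.07. Apolipoproteins (median 2.48) and disease-associated genes (2.41) are at the top and homeostatic genes (−0.86) near the bottom, while the lists of phagocytosis receptors and Trem2 signalling straddle the dashed line.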

How the data were processed

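Single-cell UMI counts of 4 libraries (2 untreated, 2 at week 5 of cuprizone) were analysed. The counts are those the authors deposited, whole numbers per gene and cell; per the submitters' processing notes they were made with Cell Ranger 3.0.0 and STAR on mm10, with Seurat 4 also named. The members, gene lists and tests were chosen with earlier results of these data known. Named genes were the 8 score genes, the 14 largest called rises and 10 largest called falls with the same sign in both libraries and at least 20 UMIs in the higher class of each, the 3 most abundant genes of each list and 13 set genes; other names, and the falls with member UMIs, were chosen after their values were seen.

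UMIs were summed per class and library, scaled by TMM (score genes kept in the totals) and tested with edgeR 4.0.16 (R 4.3.3; filterByExpr, quasi-likelihood, Benjamini-Hochberg) with the library as a block against low-score cells and without one against week 0. The shared replicate numbers of week 0 and week 5 come from separate samples and mark no stated batch. On simulated counts of the members-against-low-score comparison, 62.4% of genes changed 2-fold and 99.4% changed 4-fold were recovered, over genes of at least 20 CPM. In the week 0 comparison these were 41.5% and 98.4%. A mean of 3.09% and 3.84% of the simulated calls were false in the 2 comparisons. The simulation gave all genes the same spread and changed 200 genes, far fewer than were called here. Its rates may therefore not carry over to these data. Scrublet in scanpy 1.11.5 marked 0.563% of cells as doublets, among them 0 and 1 members; they were kept. Promoters are from RefSeq (GRCm38.p6), where 22 of 31 genes looked up had an entry, and gene positions from GENCODE vM21. Alternatives changed the score threshold, macrophage rule, genes per cell, depth, scaling, count filter, block and tool (DESeq2 1.42.0), or left out a library. The results of some genes are not reported here.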

Additional observations from a re-analysis of the deposited data

How the results depend on the processing

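Against low-score cells 2442 genes were called. The count was 1069 with DESeq2, 4517 with totals alone, 966 with cells thinned to 1000 UMIs, and 776 to 1310 with a week 5 library left out. Among cells with at least 0.3% Malat1 it was 1287, with at least 10% ribosomal UMIs 1337 and with at least 3000 UMIs 1540; these 3 were chosen after seeing the data. Against week 0, 2957 genes were called, and the count was 1528 with DESeq2, 5453 with totals alone, 771 thinned, 1663 by the Malat1 limit, 692 by the ribosomal limit and 1444 to 3147 with a library left out. Fewer cells or samples were in the restricted fits; the cause of the other changes was not tested. With DESeq2, 69.4% of the calls against week 0 were higher, and with totals alone 16.3%, against 52.7%.

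Without the replicate block, 2134 genes differed from low-score cells (1215 higher, 919 lower) and 20 of the named genes lost their call. With a replicate block, 2108 genes differed from week 0 (1153 and 955) and 16 lost it.

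Directions reversed against low-score cells with totals alone for Mylip (−0.48), Tgfb1 (−0.48), Ly6e (−0.36), C1qa (−0.23), C1qb (−0.032), C1qc (−0.18), Hk2 (−0.47) and Sirpa (−0.41), and with thinned cells for C1qa (−0.0098) and C1qc (−0.016). Mrc1 was at 0.36 and Ccr2 at 0.34 with a score of at least 20. Cxcl9 was at −3.25 with a score of at least 40 and from −10.10 to 1.17 with a week 5 library left out, Ccl2 at −0.16 in cells with none of the macrophage genes, and H2-Eb1 from −0.16 to 2.27 with a library left out. Against week 0, Mrc1 (0.33) and Ccr2 (0.22) reversed with a score of at least 20, Ttr by the Malat1 limit (1.21) and with a library left out (−6.39 to 6.11), and H2-Aa (−0.40) and H2-Eb1 (−0.66) by the ribosomal limit.

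The share of members in replicate 1 was 26.9% with a score of at least 20, 18.1% with 40, 18.5% without Cst7 or without Lpl in the score, 19.98% without Fabp5, 19.7% without Clec7a, 16.4% with none of the macrophage genes and 14.8% with genes per cell limited alike. In replicate 2 it was 11.02% with a score of at least 20, 10.7% thinned and 5.35% without Lpl.

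Of 145 named genes called against low-score cells, 55 lost the call without week 5 replicate 1 and 42 without replicate 2. Each of these fits has 1 sum per week 5 class and takes its spread from the 2 week 0 sums, so a lost call may follow from fewer samples alone. With 2 libraries a group and 69 members in replicate 2, changes of 2-fold or less were often below detection.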
